A study of Mus musculus with 6 samples.

Results

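The 39 genes described here encode proteins that copy DNA or carry out mitosis, and they were chosen by name from the deposited count table. All 39 matched a row of the table by symbol, out of 49315 rows, and all 39 passed the filter on low counts, which left 16956 genes for testing. They fall into 16 replication genes (the helicase subunits Mcm2 to Mcm7, Cdc6, Cdt1, Gins2, Pcna, Rrm1, Rrm2, Tyms, Ccne1, Ccne2 and E2f1) and 23 mitosis genes. Ccna2, which acts in both phases, and Mki67, which marks cycling cells in general, were placed with the mitosis genes. RNA came from mouse bone marrow after feeding on a diet labelled HFSC and after hindlimb ischemia, in which blood supply to a hind leg is interrupted, and it was sequenced after poly(A) selection. The KO group (miR-181a2b2-/-, replicates 2, 3 and 4) lacks a locus encoding the microRNAs miR-181a and miR-181b, and the WT group (miR-181a2b2flox/flox, replicates 1, 3 and 4) carries that locus floxed but undeleted. Diet and ischemia were common to both groups, and no group without them was analysed here. The labels give no age or sex and do not say whether each library is a separate animal, so the p-values rest on the spread between these libraries, which may be technical.

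A cell that divides copies its genome in S phase and separates the copies in mitosis. In late G1 phase the E2F transcription factors, freed from the retinoblastoma protein, switch on the replication genes, and later a complex containing MYB-family proteins and FOXM1 switches on the mitosis genes through a promoter element called CHR. In bone marrow most cycling cells are erythroblasts, promyelocytes and myelocytes, and B cell precursors, while mature neutrophils have left the cell cycle. Messenger RNA of these genes in whole marrow therefore reflects how many cells cycle and how much of each RNA a cycling cell holds, and in bulk samples fewer cycling cells and less RNA per cell cannot be told apart.

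Totals lay between 33861440 and 40359093 counts per library, and no pair of libraries looked like a repeat deposit. The microRNA precursors Mir181a-2 and Mir181b-2 had 0 counts in all 6 libraries, and poly(A) selection captures them poorly, so these values say nothing about the genotype labels. The extraction label names white adipose tissue, whereas erythroblast markers took between 1.55% and 3.61% of counts and adipocyte markers between 0.00498% and 0.00800%. Over all genes tested 417 passed an edgeR adjusted p of 0.05. On the leading principal component (42.2% of variance), KO replicates 2, 3 and 4 lay at -10.3, -12.1 and -36.6, against 17.3, 18.9 and 22.7 for WT replicates 1, 3 and 4, so KO replicate 4 stood apart. Xist, which female cells express, was above 1 CPM in 1 KO and 2 WT libraries, so neither group held a single sex.

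The promoters of these genes were read for the elements that the known control of the cell cycle rests on, and most but not all held at least 1. RefSeq promoters (GRCm38.p6, 250 bases before to 50 bases after the start) were matched by symbol for 13 of the 16 replication genes and 20 of the 23 mitosis genes. The following motifs were searched on both strands, namely an E2F-type motif (the letters TTCCCGC, the variant with letters TTGGCGC, the variant with letters TTCGCGC or the variant with letters TTGCCGC), the CHR (TTTGAA) and the CCAAT box that NF-Y binds. The E2F-type motif was in 8 of 13 replication promoters (61.5%) and 4 of 20 mitosis promoters (20%), against 10.9% of all 27025 genes with a promoter. The CHR was in 1 of 13 replication promoters (7.69%), that of Mcm2, and in 15 of 20 mitosis promoters (75.0%), against 20.2% of all genes. The CCAAT box was in 8 of 13 replication promoters (61.5%) and 18 of 20 mitosis promoters (90.0%), against 41.1% of all genes. The 15 mitosis promoters with a CHR were all among those 18. The matched promoters of E2f1, Ccne1, Tyms, Birc5 and Nusap1 held none of these motifs. Of 108 occurrences of these motifs in the promoters of the 39 genes, 5 overlapped an occurrence of a motif of another type. Overlapping occurrences of the same type, as in Mcm6, and letters shared by overlapping promoters of Prc1 were counted separately, so the 108 are not all distinct sites. These matches describe the letters and not binding.

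Stretches of 150 bases from the promoters of 5 genes are printed because these genes had the lowest log2 fold changes of each set (Cdc6, Cenpf and Mki67) or the clearest arrangement of the motifs (Mcm6 and Cdk1). Each runs 5′ to 3′ on the gene's strand, and capitals mark the E2F-type, CHR and CCAAT letters on either strand. Mcm6 covers chr1:128359706-128359855 on the minus strand, Cdc6 chr11:98908001-98908150 on the plus strand, Cenpf chr1:189688077-189688226 on the minus strand, Mki67 chr7:135716380-135716529 on the minus strand and Cdk1 chr10:69352913-69353062 on the minus strand.
Mcm6: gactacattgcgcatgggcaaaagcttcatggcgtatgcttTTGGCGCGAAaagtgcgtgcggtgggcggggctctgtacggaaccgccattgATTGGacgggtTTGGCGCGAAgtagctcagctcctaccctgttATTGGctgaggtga
Cdc6: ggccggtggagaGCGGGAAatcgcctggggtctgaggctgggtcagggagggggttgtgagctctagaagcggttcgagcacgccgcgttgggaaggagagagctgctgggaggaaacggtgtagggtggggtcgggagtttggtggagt
Cenpf: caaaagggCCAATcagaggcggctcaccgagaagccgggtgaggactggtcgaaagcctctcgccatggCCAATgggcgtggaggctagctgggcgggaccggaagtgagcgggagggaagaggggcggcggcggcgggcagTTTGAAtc
Mki67: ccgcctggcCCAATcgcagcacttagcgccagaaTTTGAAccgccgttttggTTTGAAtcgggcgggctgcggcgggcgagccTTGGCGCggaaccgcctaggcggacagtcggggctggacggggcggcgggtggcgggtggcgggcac
Cdk1: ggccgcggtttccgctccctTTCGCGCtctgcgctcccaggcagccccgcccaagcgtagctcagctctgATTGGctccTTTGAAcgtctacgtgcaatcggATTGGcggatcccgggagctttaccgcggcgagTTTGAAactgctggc
In the Mcm6 stretch E2F-type letters recur and no CHR is present. The Cenpf stretch holds CCAAT boxes upstream of a CHR at the start site, and the Cdk1 stretch holds all the motifs.

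**Figure D1:**
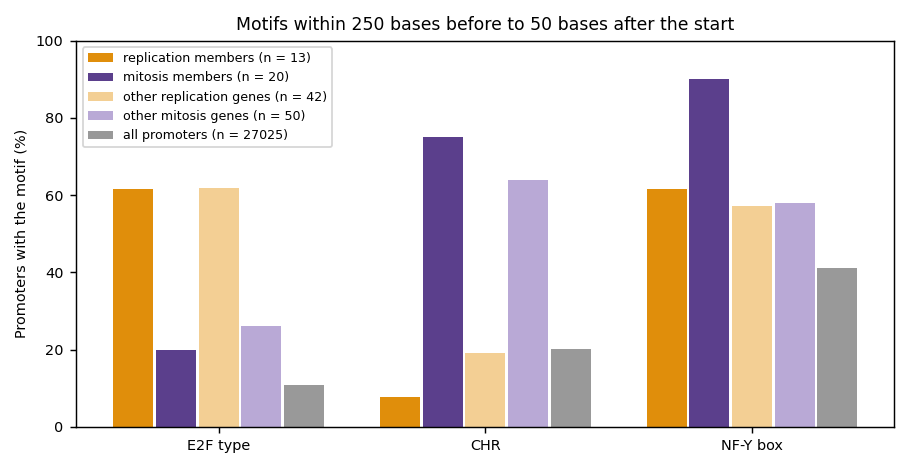
Percent of genes whose RefSeq promoter holds each motif (y axis) for the E2F-type motif, the CHR and the CCAAT box bound by NF-Y (x axis). Orange and purple bars are the 13 replication and 20 mitosis genes of this report with a promoter, pale bars are wider lists of 42 and 50 other genes, and grey bars are all 27025 genes; for the E2F-type motif the orange and pale orange bars (61.5% and 61.9%) are the tallest, and for the CHR the purple and pale purple bars (75.0% and 64.0%).

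All 39 genes were well expressed in marrow of both genotypes. Levels between genes are compared as CPM per kilobase of annotated exon, where CPM is a count scaled to a common library total and the exon length joins all annotated exons of a gene (GENCODE M21). Mki67, which coats mitotic chromosomes, stood at 143 ± 38.96 in KO and 228 ± 5.30 in WT, in CPM per kilobase (SD, n = 3 each). Pcna, the sliding clamp of DNA polymerase, stood at 172 ± 13.3 in KO and 164 ± 16.9 in WT. Rrm2, the regulated subunit of ribonucleotide reductase, which makes deoxynucleotides, stood at 136 ± 8.22 in KO and 144 ± 11.2 in WT. In WT libraries Mki67 thus lay above Pcna by more than the spread, whereas in KO libraries its range spanned the means of Pcna and Rrm2. At the low end, Gins2, a subunit of the replicative helicase, stood at 5.15 ± 0.629 in KO and 5.10 ± 0.477 in WT and Tyms, which makes thymidylate, at 11.1 ± 0.594 in KO and 10.8 ± 1.30 in WT. Cenpf, a kinetochore protein, lay beside Tyms in KO at 9.96 and above it in WT at 15.3. The helicase subunits Mcm3, Mcm5, Mcm6 and Mcm7 followed each other at ranks 9 to 12 of 39 (between 58.2 and 68.1 in KO, between 63.1 and 73.7 in WT). In both genotypes the library ranges of Mcm5 and Mcm6 and of Mcm6 and Mcm7 overlapped, and Mcm3 lay below the other 3 in level per kilobase.

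**Figure D2:**
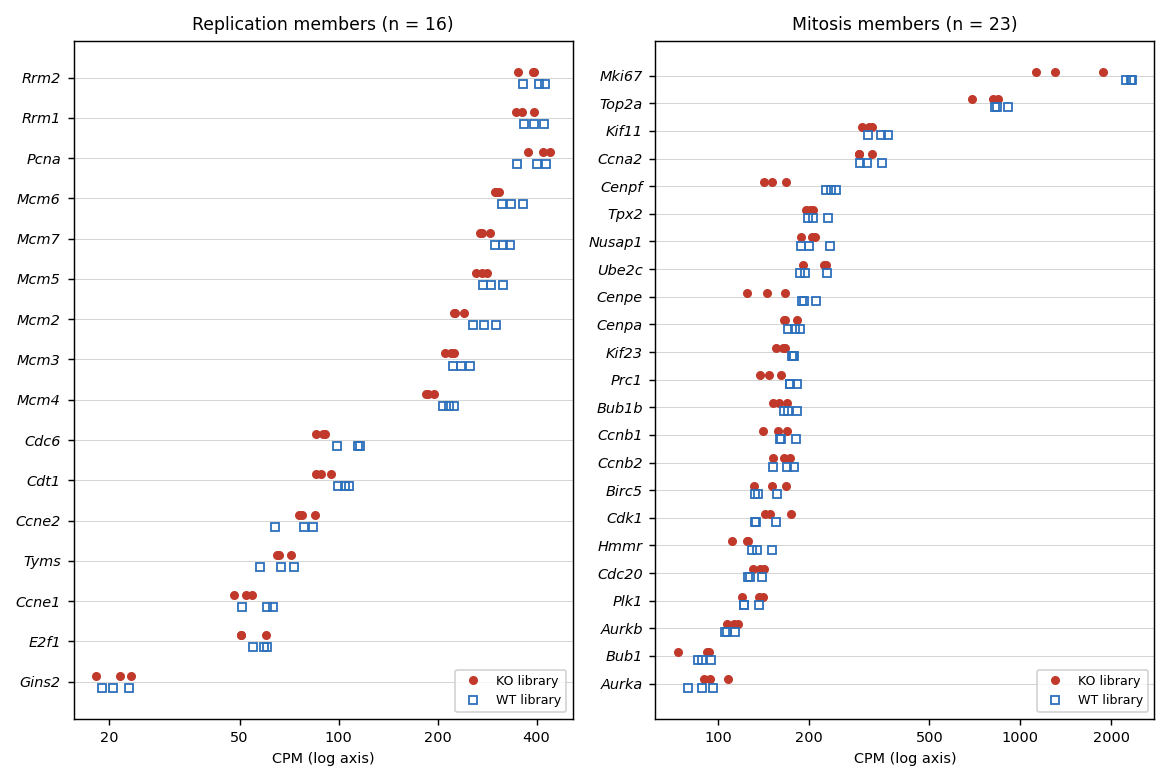
CPM of each of the 39 genes on a log axis (x axis) in every library, with the replication genes on the left and the mitosis genes on the right, ordered by WT mean (y axis). Filled red circles are KO libraries and open blue squares are WT libraries. In 27 genes they overlap, and in 12 all KO points lie left of all WT points. These 12 are Mcm2, Mcm4, Mcm6, Mcm7, Cdc6, Cdt1, Mki67, Cenpf, Cenpe, Prc1, Hmmr and Kif23.

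The deletion was compared with the floxed controls to ask whether transcripts of dividing cells differed in marrow. Of the 39 genes, 0 were called higher and 1, Cenpf, was called lower in KO (edgeR quasi-likelihood test, Benjamini-Hochberg adjusted p under 0.05 over all genes). Over all genes tested 0.938% were called higher and 1.52% lower. At an unadjusted p under 0.05 there were 0 higher and 8 lower (20.5% of 39), against 11.7% higher and 12.2% lower over all genes. In 12 of the 39 (30.8%) all KO libraries lay below all WT libraries, against 14.7% of all genes. In 0 of the 39 all KO libraries lay above all WT libraries, against 14.4% of all genes. DESeq2 called 0 higher and 4 lower (Cenpf, Mki67, Cenpe and Cdc6), in a fit that called 5.05% of all genes higher and 4.62% lower. In limma 0 were called higher and 3 lower (Cenpf, Mki67 and Cenpe), against 2.92% and 3.31% of all genes. Without KO replicate 4, without WT replicate 1 or without WT replicate 4, edgeR called 0 of the 39. These fits called few genes of any kind, 32 of 17220, 33 of 17325 and 37 of 17113 tested. Without KO replicate 3 it called 0 higher and 3 lower, against 1.81% and 3.46% of all genes.

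Of the 16 replication genes 0 passed the edgeR threshold. Their log2 fold changes (KO minus WT) ran between -0.31 and 0.08 with a median of -0.12, against -0.01 over all genes tested. Of them 12 were negative (75%, against 51.1% of all genes). In 6 (37.5%) all KO libraries lay below all WT libraries, and 4 (25%) were lower at an unadjusted p under 0.05. The mitosis genes ran between -0.68 and 0.14 with a median of -0.07, and 16 of 23 (69.6%) were negative. In 6 (26.1%) all KO libraries lay below all WT libraries, and 4 (17.4%) were lower at that p. The shares over all genes were 14.7% and 12.2%.

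**Figure D3:**
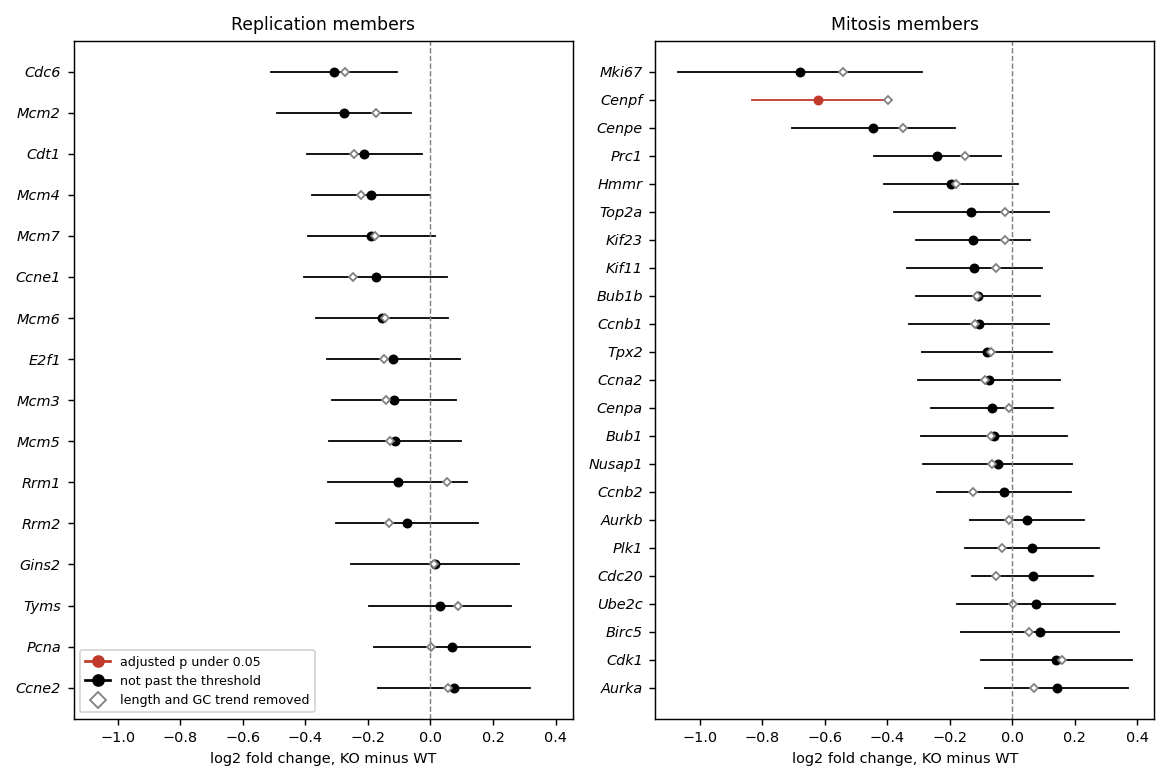
Log2 fold change, KO minus WT (x axis), of each replication gene (left) and mitosis gene (right) with its 95% interval from the edgeR fit. The red point, Cenpf at -0.62, passed an adjusted p of 0.05 and the black points did not; open diamonds give the value with length and GC trends taken out, -0.40 for Cenpf.

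Licensing of replication origins loads the Mcm2 to Mcm7 helicase on DNA with the help of Cdc6 and Cdt1. Cdc6, the loading ATPase (chr11:98907801-98923940, GRCm38), had 91.0, 85.5 and 89.6 CPM in KO replicates 2, 3 and 4. It had 116, 98.8 and 114 CPM in WT replicates 1, 3 and 4. All KO values lay below all WT values, and the log2 fold change of -0.31 ± 0.09 (SE), with a 95% interval of -0.51 to -0.11, was past the threshold in DESeq2 (adjusted p = 0.0440) but not in edgeR (edgeR adjusted p = 0.0915). Mcm2, a helicase subunit (chr6:88883474-88898780), had 226, 240.0 and 224 CPM in KO, against 302, 257 and 278 CPM in WT. Its groups did not overlap either, with a log2 fold change of -0.28 ± 0.10 (SE) and edgeR adjusted p = 0.126. Cdt1, which brings the helicase to Cdc6, had 95.1, 88.3 and 85.5 CPM in KO, against 108, 99.6 and 104 CPM in WT. Its log2 fold change was -0.21 ± 0.08 (SE) (edgeR adjusted p = 0.159), and the KO libraries again lay lowest.

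The other helicase subunits had values in the same direction. Mcm4 had 185, 187 and 195 CPM in KO, against 224, 207 and 217 CPM in WT. Mcm6 had 301, 299 and 307 CPM in KO, against 363, 313 and 334 CPM in WT. Mcm7 had 288, 269 and 273 CPM in KO, against 331, 299 and 316 CPM in WT. In these 3 the groups did not overlap and the log2 fold changes were -0.19, -0.15 and -0.19, with edgeR adjusted p values of 0.207, 0.342 and 0.239. Mcm3 had 211, 219.5 and 224 CPM in KO, against 251, 224 and 236 CPM in WT. Mcm5 had 261, 282 and 273 CPM in KO, against 317, 276 and 289.9 CPM in WT. For Mcm3 and Mcm5 the highest KO library lay above the lowest WT library, WT replicate 3, and the log2 fold changes were -0.12 and -0.11. The 6 subunits form a ring with equal copies of each, and none of the 6 passed the threshold in edgeR, DESeq2 or limma.

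The other 8 replication genes act at the replication fork, in nucleotide supply or in entry into S phase. All of these 8 overlapped between the groups, as did 12026 of all 16956 genes tested. Pcna had 419.9, 377 and 439 CPM in KO, against 429, 349 and 401 CPM in WT. Its log2 fold change of 0.07 ± 0.11 (SE) had a 95% interval of -0.18 to 0.32, so that a Pcna level lower by the amount seen for Cenpf lay outside the interval. Rrm1, the large subunit of ribonucleotide reductase, and Rrm2 had log2 fold changes of -0.10 (95% interval -0.33 to 0.12) and -0.08 (-0.30 to 0.15). Tyms was at 0.03 (-0.20 to 0.26) and Gins2 at 0.01 (-0.26 to 0.28). Ccne1 and Ccne2, the cyclins E that drive entry into S phase, were at -0.18 and 0.08, and E2f1, a transcription factor that drives the replication genes, at -0.12. The edgeR adjusted p values of these 8 genes lay between 0.321 (Ccne1) and 0.958 (Gins2).

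Among the mitosis genes the lowest log2 fold changes belonged to Mki67, Cenpf and Cenpe, which encode large chromosome and kinetochore proteins. Cenpf, a coiled-coil protein that binds kinetochores and microtubules (chr1:189640606-189688086, GRCm38), had 142, 168 and 151 CPM in KO replicates 2, 3 and 4. It had 245, 237 and 227 CPM in WT replicates 1, 3 and 4. Every KO library lay below every WT library, and the means were 154 ± 13.1 CPM in KO and 236 ± 9.12 CPM in WT (SD, n = 3 each). The log2 fold change was -0.62 ± 0.09 (SE), a level 35.0% lower in KO, with a 95% interval of -0.83 to -0.41 and edgeR adjusted p = 0.0215. The call was lost without KO replicate 4 (adjusted p = 0.0844), without WT replicate 1 (0.0745) and without WT replicate 4 (0.0730), where the log2 fold changes were -0.60, -0.59 and -0.65. With trends on exon length and GC content taken out of each library, the log2 fold change was -0.40 (adjusted p = 0.0475).

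Mki67, which encodes the Ki-67 antigen used to count cycling cells (chr7:135689784-135716361), had the lowest log2 fold change of the 39 genes, -0.68 ± 0.17 (SE), but did not pass the threshold (edgeR adjusted p = 0.0710). Its values were 1126, 1875 and 1302 CPM in KO replicates 2, 3 and 4. They were 2333, 2234 and 2318 CPM in WT replicates 1, 3 and 4. The WT libraries lay close together (coefficient of variation 2.32%), whereas KO replicate 3 stood 1.67 times above KO replicate 2 (27.3%). Without KO replicate 3 the log2 fold change was -0.91 and passed (edgeR adjusted p = 0.0156), and DESeq2 and limma called it over all 6 libraries (adjusted p = 0.00217 and 0.0367). Cenpe, a kinetochore motor protein that moves chromosomes to the spindle's equator (chr3:135212537-135273611), had 125, 167 and 145 CPM in KO, against 212, 193 and 189 CPM in WT. KO replicate 3 was again the highest KO library, the groups did not overlap, and the log2 fold change was -0.44 ± 0.12 (SE) (edgeR adjusted p = 0.0729). Cenpe passed without KO replicate 3 (adjusted p = 0.0352), in DESeq2 (adjusted p = 0.0113) and in limma (adjusted p = 0.0479).

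Prc1, Hmmr and Kif23, which act on spindle microtubules, also had all KO libraries below all WT libraries. Prc1, a bundling protein of the central spindle, had 138, 161 and 148 CPM in KO, against 183, 173 and 173 CPM in WT. Hmmr had 112, 126 and 125 CPM in KO, against 151, 134 and 129 CPM in WT. Kif23, a motor of the central spindle needed for cytokinesis, had 155, 167 and 164 CPM in KO, against 177, 178 and 176 CPM in WT. Their log2 fold changes were -0.24, -0.20 and -0.13 (edgeR adjusted p = 0.151, 0.243 and 0.377). Prc1 had an unadjusted p under 0.05, while Hmmr and Kif23 did not.

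The kinases, cyclins and destruction machinery that time mitosis, 9 of the mitosis genes, overlapped between genotypes, as did 12026 of all 16956 genes tested. Cdk1, the kinase that starts mitosis, had 149, 143 and 174 CPM in KO, against 156, 133 and 134 CPM in WT. Its log2 fold change of 0.14 ± 0.11 (SE) was positive and its 95% interval ran -0.10 to 0.38. Its partner cyclins Ccna2, Ccnb1 and Ccnb2 had log2 fold changes of -0.07, -0.11 and -0.03. Ccnb1 had 141, 158 and 169.5 CPM in KO, against 181.1, 162 and 160.1 CPM in WT. The highest and the lowest values of Ccnb1 came from WT replicate 1 and KO replicate 2, and the other 4 libraries interleaved. Aurka and Aurkb, kinases of the spindle poles and the centromeres, were at 0.14 and 0.05, and Plk1, a kinase with many mitotic targets, at 0.06. Cdc20, which activates the ubiquitin ligase that ends mitosis, was at 0.07, and Ube2c, the enzyme that hands ubiquitin to that ligase, at 0.08. None of these 9 genes had an interval that excluded 0, and the intervals together ran between -0.33 and 0.38.

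The remaining 8 mitosis genes had log2 fold changes between -0.13 and 0.09 and, like most genes tested, overlapped between the groups. Top2a, the topoisomerase that untangles sister chromatids, had 691, 846 and 809.7 CPM in KO, against 908, 825 and 838 CPM in WT. KO replicates 2 and 4 lay below the WT libraries and KO replicate 3 among them. Bub1 and Bub1b, kinases of the spindle checkpoint, were at -0.06 and -0.11, and Birc5, the survivin subunit of the Aurkb complex, at 0.09. Cenpa, the histone that marks centromeres, was at -0.07. Tpx2 and Kif11, an activator of Aurka and a motor that pushes the spindle poles apart, were at -0.08 and -0.12, and Nusap1, a spindle protein, at -0.05. Bub1 had 0.05 without KO replicate 2, and Nusap1 had 0.05 without WT replicate 1, so neither kept its sign.

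Replication and mitosis genes were then set against each other within each library, which removes any common shift. The mean log2(CPM + 0.5) of the 16 replication genes minus that of the 23 mitosis genes was -0.28, -0.45 and -0.40 in KO replicates 2, 3 and 4, against -0.39, -0.43 and -0.31 in WT replicates 1, 3 and 4. The group means were -0.38 ± 0.0835 in KO and -0.38 ± 0.0643 in WT (SD, n = 3 each), and the ranges overlapped. The difference between them, -0.00245, was well within the spread between libraries, and it lay between -0.06 and 0.03 under the alternatives.

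Summed over the 39 genes, the level was 8269.7, 9208 and 8926 CPM in KO replicates 2, 3 and 4, against 10808, 9704 and 10184 CPM in WT replicates 1, 3 and 4. Every KO sum lay below every WT sum. Leaving out Mki67, a choice made after its values were seen, the sums were 7144, 7333 and 7625 CPM in KO and 8475, 7469 and 7865 CPM in WT, with KO replicate 4 above WT replicate 3. Single libraries shaped the pattern. WT replicate 1 held the highest value in 26 of the 39 genes, and KO replicate 2 the lowest in 17, of which 13 were mitosis genes. KO replicate 3 held the lowest value in 10. Against the direction of the sums, WT replicate 3 held the lowest value in 10 and KO replicate 4 the highest in 9. Without WT replicate 1 the median log2 fold change was -0.085 for the replication genes and -0.015 for the mitosis genes. Without WT replicate 3 these medians were -0.16 and -0.12.

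Log2 fold changes were lower in genes with longer exon sequence. The 13 genes with the longest exon sequence (5229 to 15433 bases, Cdc6 to Cenpf) had a median log2 fold change of -0.20, and in 8 of them all KO libraries lay below all WT libraries. The 13 of middle length (3589 to 4934 bases) had a median of -0.11 and 3 such genes, and the 13 shortest (1531 to 3495 bases, Ccnb2 to Ccne2) had a median of 0.06 and 1 such gene. All genes tested, split at the same lengths, had medians of -0.11, 0.01 and 0.08 for long, middle and short. All KO libraries lay below all WT libraries in 61.5%, 23.1% and 7.69% of the long, middle and short genes of the 39, against 22.6%, 13.1% and 9.26% of all genes of those lengths. The share over all genes thus also increased with length, and the short genes of the 39 lay near it. Across the 39 genes, which share the same 6 libraries and so are not independent, log2 fold change and log10 exon length had a Pearson r of -0.66 and a Spearman rho of -0.58, against -0.13 and -0.23 over all 16919 genes with a length. Within the 23 mitosis genes r was -0.77 and within the 16 replication genes -0.23.

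With length and GC trends taken out of every library, r across the 39 genes was -0.31. It was -0.54 within the mitosis genes and 0.29, of the opposite sign, within the replication genes. The medians were -0.15 for the longest, -0.11 for the middle and -0.03 for the shortest genes. Mki67, Cenpf and Cenpe kept the lowest values, at -0.54, -0.40 and -0.35, and Top2a, among the longest, moved to -0.02. Rrm1, at 11012 bases the longest replication gene, had -0.10 as counted and 0.05 with the trend removed. The part of transcript length in these differences was not tested beyond these values.

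**Figure D4:**
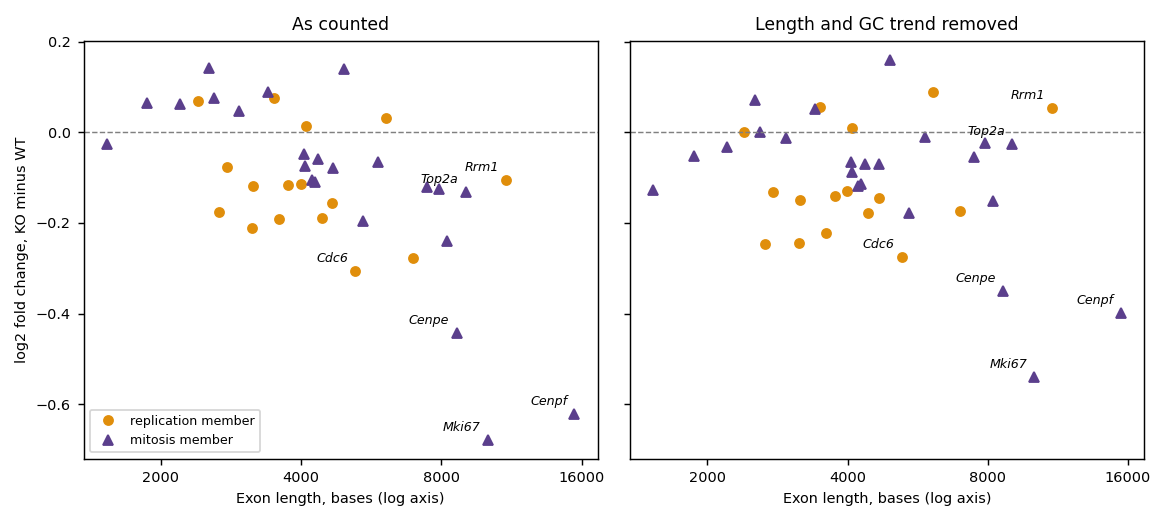
Log2 fold change, KO minus WT (y axis), against exon length in bases on a log axis (x axis) for the 39 genes, as counted (left) and with length and GC trends taken out (right). Circles are replication genes and triangles mitosis genes; the long mitosis genes Mki67, Cenpf and Cenpe lie lowest in both panels, at -0.68, -0.62 and -0.44 as counted.

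Wider lists of the same pathways were read from the same fit. Of 50 other replication genes 5 fell (10%, against 1.52% of all genes), 0 rose and 45 did not pass, and in 18 of the 50 (36.0%, against 14.7% of all genes) all KO libraries lay below all WT libraries. Their median log2 fold change was -0.06. Orc1, the origin recognition ATPase, had 22.0, 22.8 and 23.8 CPM in KO, against 32.7, 30.9 and 31.4 CPM in WT. Clspn, an adaptor of the replication checkpoint, had 79.1, 90.5 and 72.3 CPM in KO, against 111, 116 and 121 CPM in WT. Pole, the catalytic subunit of the leading-strand polymerase, had 49.4, 72.4 and 50.9 CPM in KO, against 88.2, 90.5 and 91.4 CPM in WT. In all 3 the KO libraries lay below the WT libraries, with log2 fold changes of -0.47, -0.53 and -0.65 (edgeR adjusted p = 0.0350, 0.0358 and 0.0481). Atad5, which unloads the sliding clamp, and Timeless, a fork protection protein, fell by 0.53 and 0.41 on the log2 scale (edgeR adjusted p = 0.0435 and 0.0438). Each of these 5 lost its call without KO replicate 4 and without each WT replicate in turn, and Orc1, Atad5 and Pole also without KO replicate 2. With a covariate for Xist the adjusted p values of Clspn, Atad5, Timeless and Pole were 0.0673, 0.0596, 0.0733 and 0.0740, none past the threshold. With the length and GC trend removed that of Timeless was 0.0515.

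The wider mitosis list held 60 genes, of which 1 fell (1.67%, near the 1.52% of all genes), 0 rose and 59 missed the threshold, with a median of -0.03. At an unadjusted p under 0.05 there were 5 higher and 12 lower. All KO libraries lay below all WT libraries in 20 of the 60 (33.3%, against 14.7% of all genes) and above them in 4. The gene that fell, Kif14, a motor of cytokinesis with 10358 bases of exon, had 61.1, 76.2 and 66.3 CPM in KO, against 98.8, 102 and 89.6 CPM in WT. Its log2 fold change was -0.51 ± 0.10 (SE) with edgeR adjusted p = 0.0427, and -0.36 with the trend removed (adjusted p = 0.0582). Kif14 also lost its call in 5 of the 6 fits that left out 1 library, the exception being KO replicate 3. Espl1, the protease separase, and the condensin subunits Ncapd3 and Ncapg2 followed with -0.38, -0.35 and -0.39, and did not pass (edgeR adjusted p = 0.0541, 0.0624 and 0.0757).

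Of 44 listed regulators and inhibitors of the cycle 42 were tested. Of these 2 fell (4.76%, against 1.52% of all genes), 0 rose and 40 did not pass. At an unadjusted p under 0.05 there were 2 higher and 8 lower. All KO libraries lay below all WT libraries in 10 of the 42 (23.8%, against 14.7% of all genes) and above them in 4. Rb1, the retinoblastoma protein that restrains E2F factors, had 123, 138 and 123 CPM in KO, against 179, 176 and 176 CPM in WT. The groups were well apart, and its log2 fold change was -0.47 ± 0.09 (SE) (edgeR adjusted p = 0.0339). Tfdp2, a dimer partner of E2F factors, had 173, 143 and 126 CPM in KO, against 297, 201 and 269 CPM in WT. Its log2 fold change was -0.79 ± 0.16 (SE) (edgeR adjusted p = 0.0462), and -0.57 with the trend removed, where the call was lost (adjusted p = 0.142). With the Xist covariate Tfdp2 lost its call too (adjusted p = 0.0844), and Rb1 was at the threshold (0.05). Rb1 lost its call in 5 of the 6 fits that left out 1 library, the exception being KO replicate 3, and Tfdp2 in 4, without KO replicate 3, KO replicate 4, WT replicate 1 or WT replicate 4. Ccnd1, a cyclin D, and E2f8, a repressor of the E2F family, had log2 fold changes of -0.57 and -0.31 and did not pass (edgeR adjusted p = 0.1001 and 0.106).

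Marker genes of marrow cell types that divide were read beside the cell cycle genes. The mean log2(CPM + 0.5) of 9 promyelocyte markers was 8.84, 8.92 and 9.09 in KO replicates 2, 3 and 4, against 8.33, 8.36 and 8.43 in WT replicates 1, 3 and 4. All KO libraries lay above all WT libraries in 9 of 9, against 14.4% of all genes. Of the 9 markers 6 rose, against 0.938% of all genes, and the median log2 fold change was 0.58. Elane, the neutrophil elastase of their granules, had 1291, 1319 and 1525 CPM in KO, against 904, 911 and 955 CPM in WT and was among those that rose (edgeR adjusted p = 0.0350). For 19 erythroblast markers the mean was 8.76, 8.47 and 8.50 in KO replicates 2, 3 and 4, against 9.30, 8.66 and 9.06 in WT replicates 1, 3 and 4. Of these 19 genes 4 fell (21.1%, against 1.52% of all genes) and 0 rose. All 19 had negative log2 fold changes, with a median of -0.31. WT replicate 1 stood highest, as it did in most of the 39 cell cycle genes. For 14 B cell precursor markers the mean was 4.91, 3.37 and 3.46 in KO replicates 2, 3 and 4, against 4.56, 4.42 and 5.10 in WT replicates 1, 3 and 4. Here 0 passed, with 0 higher and 0 lower at an unadjusted p under 0.05. All 14 log2 fold changes were negative, with a median of -0.57. KO replicate 2 lay among the WT libraries while KO replicates 3 and 4 lay far below. None of these markers was at 0 in any library. Late neutrophil markers, a list that does not separate dividing from non-dividing cells, together took between 6.50% and 7.69% of counts in KO. In WT they took between 4.51% and 5.87% of counts. The part of cell composition in the differences of the cell cycle genes was not tested.

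**Figure D5:**
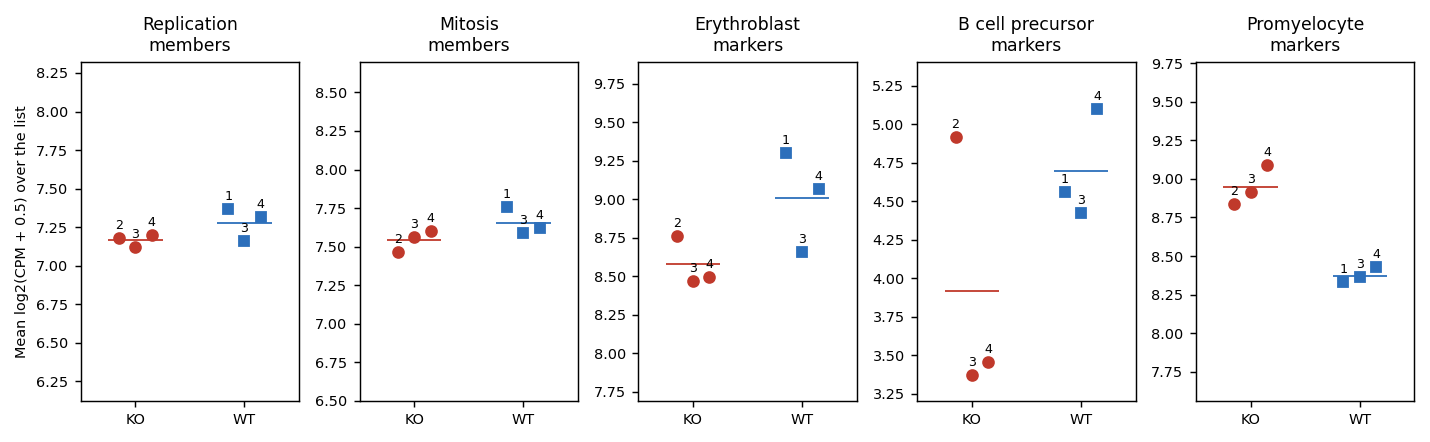
Mean log2(CPM + 0.5) over each list (y axis, the same span in every panel) in KO libraries (red circles, left) and WT libraries (blue squares, right), with the replicate number at each point and a line at the group mean. Replication and mitosis genes span less than the marker lists, of which the promyelocyte markers lie higher in all KO libraries and the B cell precursor markers split the KO libraries.

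The deleted locus encodes microRNAs that lower messenger RNAs holding a match to their seed, bases 2 to 8, so the 39 genes were searched for such matches. The mature sequences (RefSeq, GRCm38.p6) lie at chr2:38852741-38852763 on the plus strand and chr2:38853845-38853868 on the plus strand, and capitals mark the seed, which both share.
miR-181a-5p: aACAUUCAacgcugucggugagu
miR-181b-5p: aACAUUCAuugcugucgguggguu
In the longest annotated 3' UTR of each gene, 11 of the 39 (28.2%) held an 8mer or 7mer match, against 23.1% of 13705 tested genes with an annotated 3' UTR. Their median log2 fold change was -0.11, against -0.11 for the 26 without even a 6mer match. Over all genes tested the corresponding medians were -0.05 and 0.03. Of the 11, 2 had positive log2 fold changes (Pcna and Aurkb) and 9 negative ones, and the called gene Cenpf was among the 9. The only 8mer was in Ccna2, and it is shown with the 7mers of Cenpf and Pcna, with the match in capitals.
Ccna2: acaatcacttcTGAATGTAgatggtatagc
Cenpf: atacatgtcttTGAATGTgtgatactagt
Pcna: ttttgttaacaTGAATGTttctgctttac
Ccna2 had a log2 fold change of -0.07 ± 0.10 (SE), Cenpf of -0.62 ± 0.09 (SE) and Pcna of 0.07 ± 0.11 (SE), so the sequences above stand beside values of either sign. A match describes letters and not repression of that messenger RNA.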

How the data were processed

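Bone marrow RNA of 3 KO and 3 WT samples was analysed. The deposited values were raw read counts per Ensembl gene. The submitters' processing notes list Trimmomatic (0.36), STAR (2.5.2b), featureCounts, Subread (1.5.2) and GRCm38, without settings. Annotation release, strand handling and multiple alignments were not stated. Symbols from GENCODE M21 matched 49056 of 49315 identifiers.

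The main test was the edgeR 4.0.16 quasi-likelihood test (robust, R 4.3.3) with TMM scaling (factors 0.948 to 1.04) and filterByExpr. It was two-sided, and p-values were adjusted over all genes by Benjamini-Hochberg at 0.05. Log2 fold changes are KO minus WT, and SEs come from the F statistic. CPM uses TMM-scaled totals, and 3 counts, the limit that a count of 0 allows, equal 0.0743 to 0.0886 CPM, for counting error only. The fit was tested on simulated data, in 3 draws per fold change with 200 changed genes each. It recovered 22.5% of genes changed 1.5-fold and 61.5% of genes changed 2-fold. Mean false calls per draw were 9 and 11.7. In both cases this was a larger share of the calls than the 0.05 of the threshold, which limits calls with adjusted p values near it. Among all genes tested, a gene that was not called may therefore still differ by such amounts. For the 39 genes the 95% intervals, each taken alone, were narrower. Those of the uncalled genes excluded a 1.5-fold change, except for Mki67 (lower bound -1.07 on the log2 scale) and Cenpe (-0.70). Only that of Mki67 reached a 2-fold change. A permutation of 3 against 3 libraries cannot go below p = 0.1, so none was run, and lists have no test. Alternatives were DESeq2 1.42.0, limma 3.58.1 with sample weights, other scalings and filters, a replicate block, Xist above 1 CPM as covariate, a loess trend on length and GC taken out, and each library left out. The genes and lists were chosen with earlier results of these data known. All 39 genes are named, and of each wider pathway list the called genes up to 6, or otherwise up to 4 with the smallest p.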

Additional observations from a re-analysis of the deposited data

How the results depend on the processing

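Of the 39 genes, 0 were called higher under any alternative. Called lower were 2 with library totals only, 3 without the low-count filter, 3 in limma, 4 in DESeq2 and 0 to 3 with a library left out, and 1 under each other alternative. Of all genes, library totals only called 403 of 16956 lower, the unfiltered fit 839 of 30403, limma 3.31% and DESeq2 4.62%. With a library left out 23 to 604 genes were called lower, and under the other alternatives 133 (Xist covariate) to 359 (replicate block). Genes called over the whole table numbered 1492 unfiltered, 209 with the Xist covariate, 1641 in DESeq2, 1057 in limma and 32 to 920 with a library left out, against 417. With library totals only the share of higher calls was 17.8%, against 38.1%, and 43.3% with the trend removed, 52.2% with DESeq2 and 46.8% with limma. Library totals only gave medians of -0.19 (replication) and -0.15 (mitosis), and with a library left out these lay between -0.16 and -0.085 and between -0.12 and -0.01. The replicate block moved the mitosis median to 0.0073 and the count of calls to 571, with Orc1, Atad5, Timeless, Kif14 and Rb1 no longer called (adjusted p = 0.1, 0.0713, 0.0522, 0.0743 and 0.0820). Numbers 3 and 4 occur in both groups, their deviations from the group means correlated at 0.274 and -0.234, and so they are not taken to pair the samples.

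Signs turned only for genes that did not pass in either fit. With library totals only these were Gins2 at -0.0587, Pcna at -0.0038, Tyms at -0.0417, Plk1 at -0.0099, Aurkb at -0.0252, Cdc20 at -0.0067. With the block they were Ccna2 at 0.0190, Ccnb1 at 0.0204, Bub1 at 0.0849, Tpx2 at 0.0073, Nusap1 at 0.0353, and with the trend removed Rrm1 at 0.0530, Plk1 at -0.0320, Aurkb at -0.0118, Cdc20 at -0.0512. With the Xist covariate they were Gins2 at -0.0097, Tyms at -0.0134, and with the stricter filter (mean log2 CPM from 1 upwards) Gins2 at -0.0031. With a library left out the ranges were Bub1 -0.1122 to 0.0473, Ccnb2 -0.0881 to 0.0314, Ccne2 -0.0275 to 0.1568, Gins2 -0.0618 to 0.1177, Nusap1 -0.1154 to 0.0521, Pcna -0.0099 to 0.1405, Tyms -0.0572 to 0.1151. The cause was not tested. Each of the 39 genes had at least 656 counts in each library.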

Other observations

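Other marker lists fixed for this report place the cell cycle genes among the remaining cells of the marrow, with calls from edgeR at an adjusted p under 0.05. Over all genes tested 0.938% rose and 1.52% fell, and at an unadjusted p under 0.05 11.7% were higher and 12.2% lower. Of the stem and progenitor markers 0 rose and 0 fell of 10 (median -0.04, and 0 higher and 1 lower at an unadjusted p under 0.05), and Myb, the highest of them, had 284, 218 and 219 CPM in KO, against 238, 234 and 289 CPM in WT. Of the mature B cell markers 0 rose and 0 fell of 8 (median -0.94, and 0 higher and 5 lower at an unadjusted p under 0.05), and of the T and NK cell markers 0 rose and 0 fell of 10 (median 0.03, and 1 higher and 0 lower at an unadjusted p under 0.05). Of the plasma cell markers 1 rose and 0 fell of 7 (median 0.08, and 2 higher and 0 lower at an unadjusted p under 0.05), the gene that rose being Xbp1, a transcription factor of secretory cells, with 189, 206 and 247 CPM in KO, against 148, 148 and 142 CPM in WT. Of the late neutrophil markers 2 rose and 0 fell of 12 (median 0.49, and 9 higher and 0 lower at an unadjusted p under 0.05), and of 8 adipocyte markers 5 were tested, of which 0 passed. Of the immediate early genes, which cells transcribe within minutes of a stimulus, 0 rose and 11 fell of 12 (median -1.46, and 0 higher and 12 lower at an unadjusted p under 0.05), and Fos, a subunit of AP-1 and the highest of them, had 669, 456 and 402 CPM in KO, against 1321, 1719.6 and 1644 CPM in WT.

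The D cyclins and the kinases they bind were read after their values were seen. Ccnd3 had 685, 638 and 681 CPM in KO, against 569, 543 and 559.7 CPM in WT. Its KO libraries lay above all WT libraries, with a log2 fold change of 0.26 ± 0.09 (SE) that did not pass (edgeR adjusted p = 0.133). Ccnd2 had 50.5, 49.9 and 53.4 CPM in KO, against 70.2, 57.9 and 60.2 CPM in WT. Its KO libraries lay below all WT libraries, with a log2 fold change of -0.29 ± 0.09 (SE) (edgeR adjusted p = 0.108). Cdk6, a kinase partner of both, had -0.31 and Cdk4, the other kinase partner, 0.08 (edgeR adjusted p = 0.122 and 0.692). The inhibitor Cdkn2d had a log2 fold change of 0.30 and Cdkn1b of -0.05, and neither passed (edgeR adjusted p = 0.1497 and 0.745).

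Other replication and mitosis genes were split at the same exon lengths. The 48 longest had a median log2 fold change of -0.17 (-0.12 with the trend removed), and 5 fell (10.4%, against 2.61% of all genes of those lengths). The 24 of middle length had -0.06 (-0.08 with the trend removed) and 0 fell, against 1.07% of all such genes. The 38 shortest had 0.08 (-0.0075 with the trend removed) and 1 fell (2.63%, against 0.883%).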
